A study of Mus musculus with 4 samples.

Results

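The molecular motors described here are the kinesin, dynein and myosin genes with a methylated site in newborn mouse epidermis. They were chosen by name: a gene belongs to the set when it has a site in at least 1 of the 2 deposited site lists and its symbol is Kif, Dnah, Myo or Myh followed by a digit, or starts with Dync, and genes annotated with DNA repair were to be left out, which removed 0 genes. This gave 59 of the 6625 genes with a site, and 205 of the 14284 sites. Symbols were matched to RefSeq for all 59 genes.

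The sites are of N6-methyladenosine (m6A), read by MeRIP-seq, a method in which RNA fragments pulled down by an m6A antibody (IP) are compared with unselected fragments (input). The material was epidermal keratinocytes of untreated control mice at postnatal day 0 with the genotype K14Cre,Mettl14F/+, so every library came from mice that carry a Cre driven by the keratin 14 promoter and 1 floxed allele of the methyltransferase subunit gene Mettl14. There were 2 input and 2 IP libraries. Which libraries made which list is not stated, nor whether the replicates were separate animals. All values per site are the authors' own: the fold enrichment of IP over input, a score, which is minus 10 log10 of the p-value of the site and is tied at 3100 for many of them, and a false discovery rate (FDR). The FDR was never below 55.7% in list 1 and 51.2% in list 2, and no read counts were used, so the depth is unknown and replicate spread could not enter any statement on a site. Positions are on GRCm38, counted from 1. Of 13 keratinocyte markers 8 had a site, among them Krt5, Trp63 and Dsp, while Krt14, Krt15, Krt1, Krt10 and Lor had none. Of 9 fibroblast markers 7 had a site, and 4 of these had one that overlapped between the lists (57.1%). For the keratinocyte markers it was 3 of 8 (37.5%), beside 27.2% of all genes with a site. The part of fibroblasts in the motor gene sites was not tested. A site list gives no expression level, and a missing site does not show that a transcript was missing.

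Kinesins and dyneins are ATP-driven motors that move along microtubules, and myosins are motors that move along actin filaments. Mitotic kinesins build and move the spindle, transport kinesins and cytoplasmic dynein carry vesicles and organelles in opposite directions, and axonemal dyneins drive the beating of motile cilia and sperm tails. Class II myosins contract actin in muscle and at the cortex of non-muscle cells, and the unconventional myosins carry cargo or tie membranes to actin. In epidermis these motors are known from cell division, from cell contacts under tension and from the transfer of melanosomes. The 59 genes were placed in 9 role groups by textbook knowledge.

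For 2 genes the sequence under a site could be shown, because the site reached into the RefSeq window that runs from 250 bases before to 50 bases after an annotated gene start. Myo6 encodes the myosin that moves toward the minus end of actin, and its only site, in list 1, covered 53 bases of the window. Kif13a encodes an endosomal transport kinesin, and its most upstream site, in list 2, covered 50 bases. The last 100 bases of each window follow, on the strand of the gene, with the bases inside the site in capitals.
Myo6, chr9:80164984-80165083, plus strand: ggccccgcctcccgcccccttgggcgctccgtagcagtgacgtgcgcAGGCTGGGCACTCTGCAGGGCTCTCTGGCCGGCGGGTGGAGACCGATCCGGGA
Kif13a, chr13:46929669-46929768, minus strand: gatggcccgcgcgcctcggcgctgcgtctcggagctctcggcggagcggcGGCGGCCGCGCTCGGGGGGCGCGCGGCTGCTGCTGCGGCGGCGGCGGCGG

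These stretches show the region of the start of both transcripts. The m6A consensus commonly holds a purine pair before AC, so 4 words were searched on the strand of the gene alone: GGAC, found in the last 50 bases of 18.9% of all RefSeq windows, AGAC (17.4%), GAAC (14.6%) and AAAC (12.9%). The Myo6 stretch held AGAC 1 time, and the Kif13a stretch held none of the 4. At least 1 of the 4 words was present in that stretch of 50.8% of the 32851 windows, so a match or its lack in a window of this length is a description only. The site of Myo6 ran from 80165031 to 80165218 on chromosome 9 and had a fold of 54.19 at an FDR of 100%, and that of Kif13a ran from 46929567 to 46929718 on chromosome 13 and had a fold of 170.89 at an FDR of 62.1%.

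Motor genes were held in common by the lists somewhat more often than genes with a site at large. Of the 59 genes 31 had a site in both lists (52.5%, 95% Wilson interval 40.0 to 64.7), against 39.4% of all genes with a site. A site that overlapped between the lists by at least 1 base was present in 25 (42.4%, 30.6 to 55.1), against 27.2%. These were 80.6% of the 31 genes in both lists, against 69.2% of all genes in both. The other 6 genes in both lists had sites apart, 14 genes were in list 1 alone and 14 in list 2 alone, where all genes stood at 23.8% and 36.8%. Fewer motor genes had a single site in a list, 22 of 45 in list 1 and 16 of 45 in list 2. Over all genes these counts were 3038 of 4187 and 3311 of 5045, and the shares above were not adjusted for sites per gene. Motor genes are long, with a median genomic span of 86.6 kb against 34.3 kb. Among genes spanning over 50 kb, 22 of 41 motor genes (53.7%) and 49.8% of all such genes were in both lists, and 20 motor genes (48.8%) against 33.8% had an overlapping site. Of 99 protein-coding RefSeq genes named by the same pattern, 40 had no site in the lists used here, among them Kif2a, Kif20a, Myo1c, Myo1d, Myh1, Myh4, Dnah5 and Dync1li2. How many of all protein-coding RefSeq genes had no site was not computed, so this count is a description only.

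At the level of sites, 41 of the 93 found in motor genes by list 1 were met by one of list 2 (44.1%, 34.4 to 54.2), against 36.7% of all sites. In list 2 the count was 41 of 112 (36.6%, 28.3 to 45.8), against 26.8%. Folds had a median of 12.5 and quartiles of 4.78 and 33.5 in list 1. In list 2 the median was 14.5 and the quartiles were 4.76 and 44.6, beside medians of 11.6 and 11.9 over all sites. An FDR below 100% was found for 31 sites of list 1 and 53 of list 2, or 33.3% and 47.3%, beside 40.8% and 48.5% of all sites. The score was tied at 3100 for 19 of the 93 motor gene sites of list 1 and 22 of the 112 of list 2, and for 23.1% and 19.4% of all sites. Without the sites at an FDR of 100% the share of motor genes with an overlapping site fell by more than 1.5 times, to 5 of 26 (19.2%), beside 15.4% of all genes, and those 5 genes were Dync1h1, Kif13a, Myh9, Myo18a and Myo1e. The shares of sites that overlapped were then 29.0% and 17.0%, beside 27.1% and 16.7% of all sites. The intervals cover counting error only, and sites of a gene share their transcript.

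**Figure D1:**
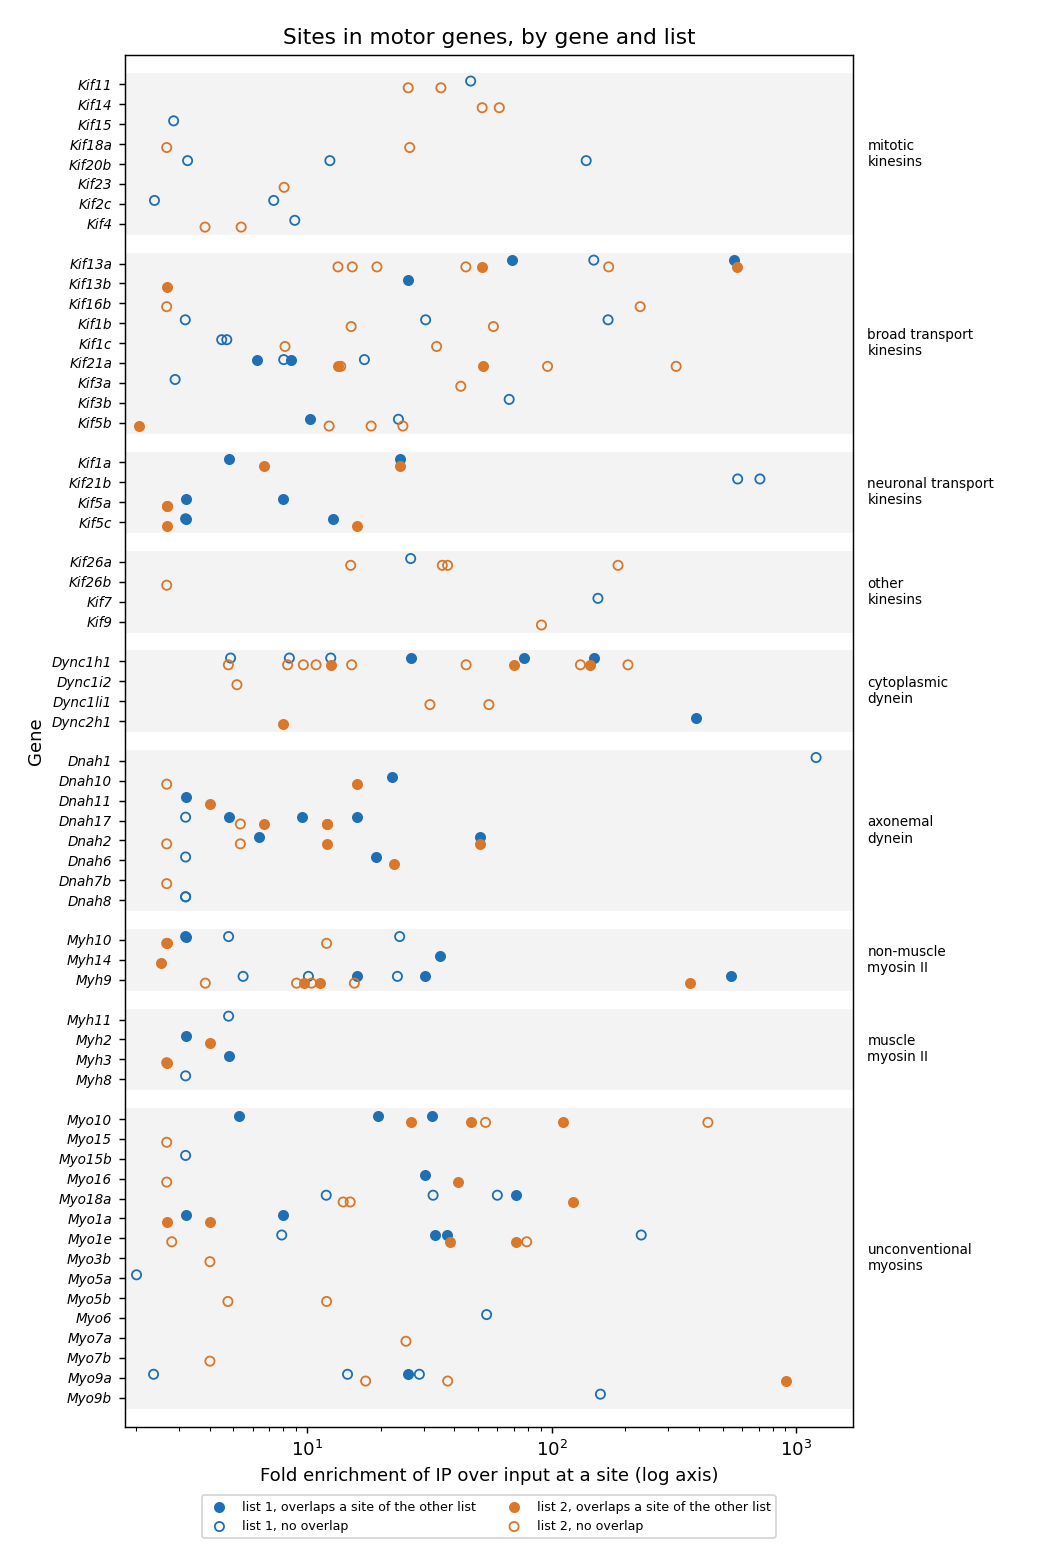
Fold enrichment of IP over input (log axis) of the 205 sites in the 59 motor genes, by gene and role group, with list 1 in blue and list 2 in orange and filled points for sites that overlap a site of the other list. The mitotic kinesins hold open points only, and the muscle myosins lie between 2.67 and 4.78.

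The 9 role groups differed in where their sites lay. All 3 non-muscle class II myosins, 3 of 4 neuronal kinesins and 5 of 8 axonemal dyneins had an overlapping site, as did 4 of 9 broadly expressed transport kinesins, 2 of 4 cytoplasmic dynein genes, 2 of 4 muscle myosins and 6 of 15 unconventional myosins. None of the 8 mitotic kinesins and none of the 4 other kinesins had one, and the intervals of these shares reached 32.4% and 49.0%, above the 27.2% of all genes. The groups are small, were formed with the values known, and the differences among them were not tested.

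**Figure D2:**
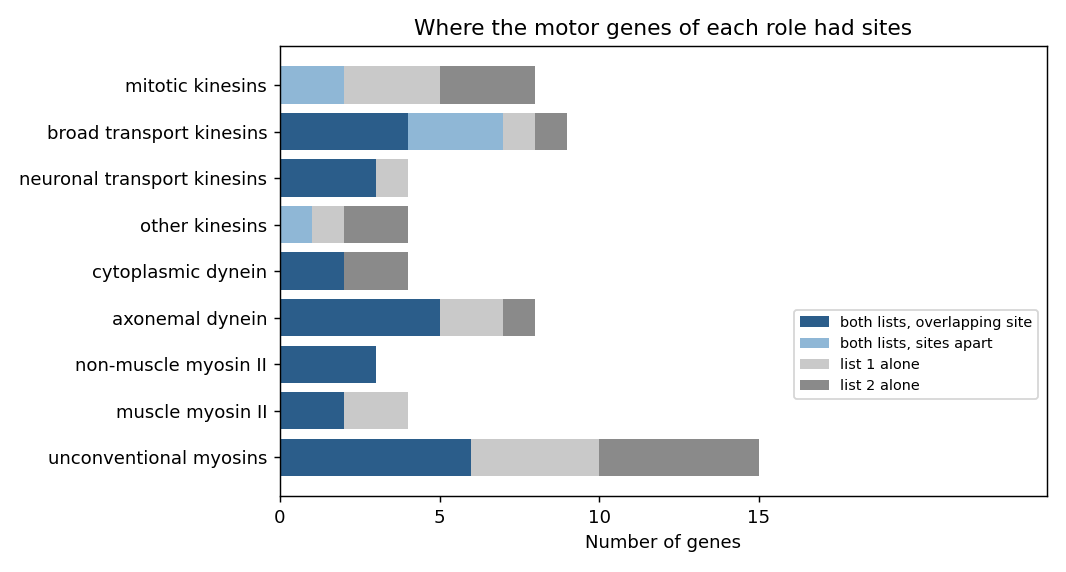
Number of genes in each role group with an overlapping site, with sites in both lists that lie apart, or with sites in 1 list alone. Overlapping sites are present in every group except the 8 mitotic and 4 other kinesins.

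Cytoplasmic dynein carries cargo toward the minus ends of microtubules. Its heavy chain gene Dync1h1 had the most sites of any motor gene, 6 in list 1 and 11 in list 2, all in the span of its transcript on chromosome 12. The site at 110637142 to 110637344 in list 1 and 110637106 to 110637344 in list 2 had folds of 148.27 and 143.42, with the score at 3100 in both. The values of the lists were close there, and less so at the other overlapping sites. The site at 110617828 to 110618696 in list 1 and 110618339 to 110618696 in list 2 had folds of 26.62 and 70.18 and an FDR of 68.6% and 65.2%. The site at 110616698 to 110616792 and 110616724 to 110616923 had folds of 77.18 and 12.49, and its FDR in list 2 was 100%. Between 110628908 and 110636078 list 2 held 6 sites, of which that at 110631780 to 110631803 was strongest, with 204.93, and list 1 held none.

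The remaining dynein subunits of the cytoplasm had fewer sites. Dync2h1, the heavy chain of the dynein of intraflagellar transport, had 1 site per list at chromosome 9, 7142650, ending at 7142764 in list 1 and 7142735 in list 2. Its fold was 388.92 in list 1 and 8.01 in list 2, with a score of 3100 and 81.16, so the same place was far apart in value. Dync1li1, a light intermediate chain, had sites in list 2 alone with folds of 55.36 and 31.79, and the intermediate chain gene Dync1i2 had 1 site in list 2 with 5.17.

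Myosin IIA, encoded by Myh9, is the main contractile non-muscle myosin of many epithelia. It had 6 sites in list 1 and 7 in list 2, of which 3 overlapped. The strongest, on chromosome 15, ran from 77771125 to 77771269 in either list, with folds of 539.4 and 366.35 and the score at 3100 in both. At 77763792 to 77764000, again with the same limits, the folds were 15.98 and 11.3, and at 77771824 the site had 30.49 in list 1, ending at 77772036, and 9.68 in list 2, ending at 77772004. Of the remaining sites of Myh9 those at 77767131 to 77767343 in list 1 (10.13) and at 77767451 to 77767663 in list 2 (9.06) were neighbours that did not overlap. The strongest Myh9 site lay above every site of its relatives, while its other sites lay within their range. Myh10, which encodes myosin IIB, had 7 sites with folds of 2.67 to 23.91, and the Myh14 site at chromosome 7, 44631551, had 35.07 in list 1 and 2.52 in list 2. The Myh10 pair, from chromosome 11, 68802108, was at the low end with 3.19 and 2.67. No site of Myh10 or Myh14 had an FDR below 100%. In all 5 overlapping pairs of these 3 genes the fold was lower in list 2, as it was in 1149 of the 2202 pairs of all genes.

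Among the unconventional myosins folds ran from 2.01 to 909.46. Myo9a encodes a single-headed myosin, and its site at chromosome 9, 59869496 to 59869793 in list 1 and 59869492 to 59869793 in list 2, had a fold of 25.8 in list 1 and 909.46 in list 2. The latter placed Myo9a 38th of 5045 genes by highest fold in list 2, the best rank of a motor gene in either list, with a score of 3100, while the same site had a score of 253.27 and an FDR of 100% in list 1. Myo10, the filopodial myosin, had 3 overlapping sites on chromosome 15. At 25726420 to 25726523 the folds were 32.48 and 46.74, and at 25782918 to 25783041 they were 19.47 and 26.7, each with the same limits in both lists. The third, 25785969 to 25786046 in list 1 and 25785839 to 25786046 in list 2, had 5.25 and 111, with scores of 83.31 and 3100. All 3 were higher in list 2, and a further site of list 2 at 25779591 to 25779810 had 434.68.

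Myo18a and Myo1e had overlapping sites with an FDR below 100% in both lists. Myo18a encodes a Golgi-associated myosin, and its site at chromosome 11, 77778110 to 77778476 in list 1 and 77778112 to 77778476 in list 2, had folds of 71.17 and 122.54 with the score at 3100 in both. Myo1e encodes a class I myosin of endocytic membranes. It had folds of 33.48 and 71.52 at a site ending at chromosome 9, 70341367, and 37.25 and 38.31 at a site starting at 70341982. Its strongest site, with 232.2 at 70297267 to 70297356, was in list 1 alone. The remaining overlapping sites, in Myo16 and Myo1a, had an FDR of 100% in both lists. Myo16 had 30.28 and 41.4 at a site from chromosome 8, 10633747 in list 1. Myo1a, a brush border myosin, had 3.19 and 4.01 at chromosome 10, 127707127 to 127707173, and 7.97 and 2.67 at a site from 127720593. Over the 10 overlapping pairs of unconventional myosins 9 were higher in list 2, beside 1053 of the 2202 pairs of all genes. The difference was not tested.

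The other 9 unconventional myosins were in 1 list. Myo9b, a relative of Myo9a, had 158.12 in list 1 with the score at 3100, beside Myo6 as given above, Myo15b with 3.19 and Myo5a, the melanosome carrier, with 2.01 at a score of 16.82. In list 2 Myo7a, a myosin of sensory hair cells, had 25.37, Myo5b, the myosin of recycling endosomes, had 12.02 and 4.75, Myo3b and Myo7b had 4.01 each and Myo15 had 2.67. Of these 9 genes Myo9b alone had an FDR below 100%. Of 9 melanocyte markers 4 had a site, with Tyr and Dct overlapping between the lists and 7 of 13 sites at an FDR below 100%. The part of melanocytes in the Myo5a site was not tested, and in bulk RNA fewer cells of a type and less RNA per cell cannot be told apart.

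Among the transport kinesins of broad expression Kif13a stood out, with 3 sites in list 1 and 7 in list 2, all at an FDR below 100%. At chromosome 13, 46848326 to 46848386, the interval was the same in both lists and the folds were 554.34 and 571.59. At 46778894, where the site ended at 46778930 in list 1 and 46778993 in list 2, the folds were 69.11 and 51.96. These pairs differed by less than 2-fold. Kif21a, a kinesin of axonal and cortical microtubules, had sites at chromosome 15, 90971083 to 90971271 (8.59 and 52.2) and from 90980795 (6.27 and 13.38), and a site of 322.49 at 90985242 to 90985431 in list 2 alone. Kif5b, the widely expressed conventional kinesin heavy chain, had 10.31 and 2.05 at chromosome 18, 6212517 to 6212618, with scores of 455.02 and 6.23, and Kif13b had 25.79 and 2.67 at chromosome 14, up to 64736360. At these last 2 places the FDR was 100% in both lists, but Kif5b also had 23.63 in list 1 and up to 24.65 in list 2 at sites that did not overlap and had an FDR below 100%.

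Other transport kinesins had sites apart or in 1 list. Kif1b had its strongest site at 169.94 in list 1 and 57.77 in list 2, and the nearest sites of the lists were 7731 bases from each other. Kif1c had 2 sites per list, the nearest 95 bases apart, with highest folds of 4.7 and 33.85. Kif3a and Kif3b encode the partners of the kinesin of intraflagellar transport. Kif3a had 2.89 in list 1 and 42.5 in list 2, 8928 bases apart, and Kif3b had 67.01 in list 1 alone. Kif16b, a kinesin of early endosomes, had 229.83 and 2.67 in list 2 alone. Among the other kinesins Kif26a, an atypical kinesin, had 26.52 in list 1 and up to 186.62 in list 2 with the nearest sites 2095 bases apart. Kif7, the ciliary regulator of Hedgehog signalling, had 154.47 in list 1, while Kif9 had 90.81 and Kif26b 2.67 in list 2.

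The mitotic kinesins had 8 sites in list 1 and 9 in list 2, and none of the 17 overlapped, where 36.7% and 26.8% of all sites did. With so few sites the 95% Wilson intervals of these shares reached 32.4% and 29.9%. Kif11, the bipolar motor that separates spindle poles, had a site with 46.64 in list 1 and sites with 25.91 and 35.25 in list 2, the nearest 22183 bases apart, all with an FDR below 100%. Kif4, a chromokinesin, had 8.91 in list 1 and 5.38 and 3.83 in list 2, the nearest 8702 bases apart. List 1 alone held Kif20b, a kinesin of cytokinesis, with up to 138.31, the microtubule depolymerase gene Kif2c with 7.31 and 2.38, and Kif15 with 2.85. List 2 alone held Kif14 (61.06 and 51.97), Kif18a (26.28 and 2.67) and Kif23, a subunit of centralspindlin (8.06). The folds were thus not uniformly low, and 7 of the 17 sites had an FDR below 100%.

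**Figure D3:**
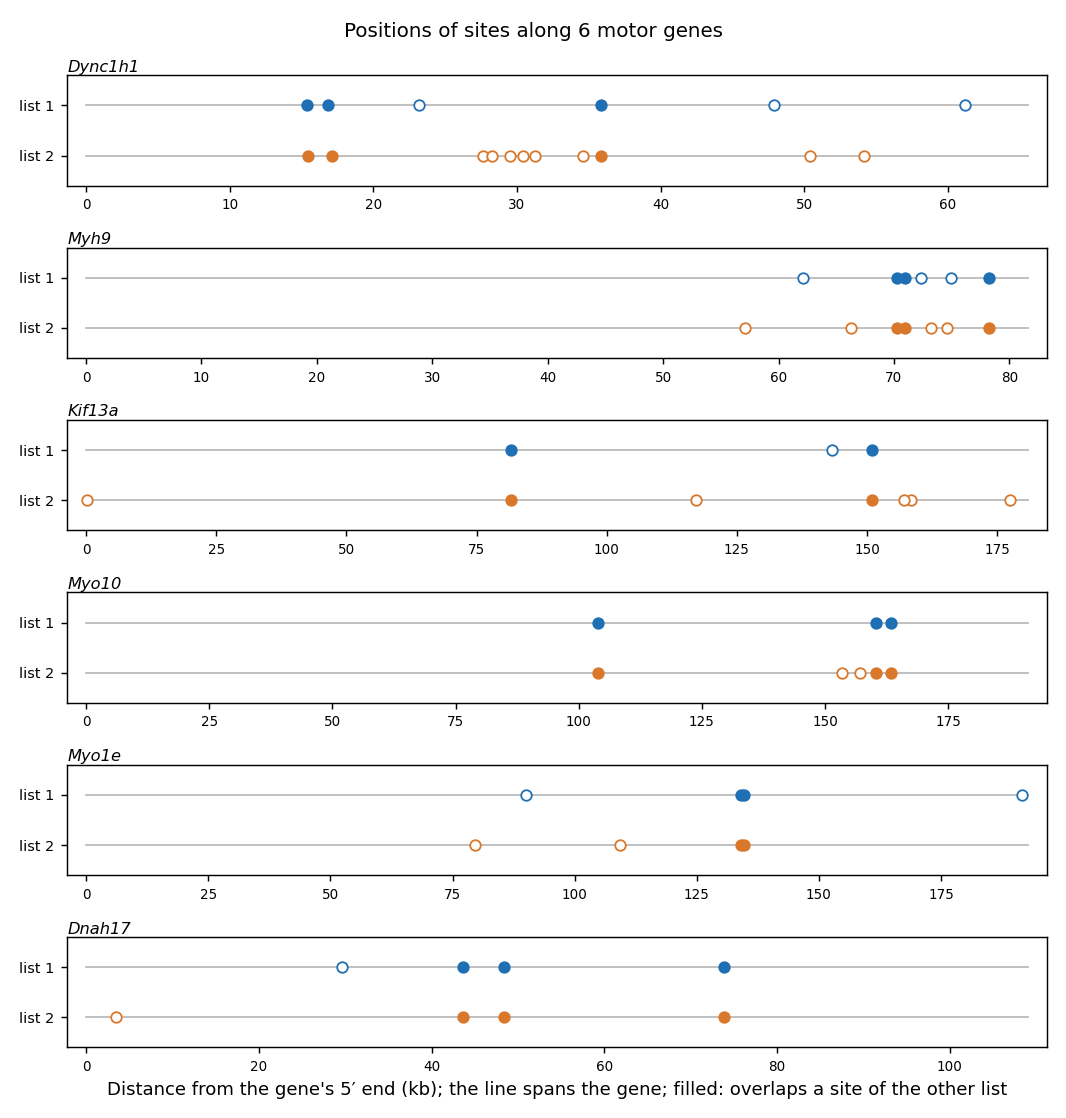
Position of sites along 6 motor genes as distance from the gene's 5′ end in kb, list 1 above and list 2 below, filled where a site overlaps one of the other list. Myh9 sites lie in the part of the gene away from its start, and 6 sites of Dync1h1 in list 2 lie in a stretch where list 1 has none.

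The fold values themselves fell into a pattern. In each list many sites shared the same few fold values, the most frequent being 3.19 in list 1 (557 sites) and 2.67 in list 2 (592 sites). Over all sites 23.7% of list 1 had a fold within 0.01 of a whole multiple of 1.594, and 23.1% of list 2 of a whole multiple of 1.3356, where values spread evenly between 2 and 60 would do so in 1.36% and 1.5%. These multiples are called steps here, the most frequent values are 2 steps, and no source used here says what a step stands for. Of the motor gene sites 35 of 93 (37.6%) and 41 of 112 (36.6%) lay on a step, in all 76 of 205 (37.1%) beside 23.3% of all sites. By role, 25 of 26 axonemal dynein sites did so, 13 of 15 of the neuronal kinesins and all 7 of the muscle myosins, together 45 of 48. The other 3 sites, of Dnah1 and Kif21b, came to 754.97, 444.98 and 360.98 steps. Each step was fitted on folds under 60, so at high folds its own error can pass 0.01 and a site on a step can be missed. The step counts here are thus uncertain at high folds, and whether these 3 sites lay on a step was not settled. Of the sites of cytoplasmic dynein and of the mitotic, broad and other kinesins 6 of 88 were called on a step. Sites of Dync2h1 at 243.99 steps, Kif21a at 71.99 and Kif9 at 67.99 were among those not settled. The remaining groups lay between, with 8 of 22 for the non-muscle myosins (36.4%), all 7 of Myh10 among them, and 17 of 47 for the unconventional myosins (36.2%), where every site of Myo16, Myo1a, Myo6 and Myo7a was on a step. The steps were noticed in the values and the role groups were formed afterwards. The groups summed together were picked by these same shares, so the gap between the sums is a description only.

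**Figure D4:**
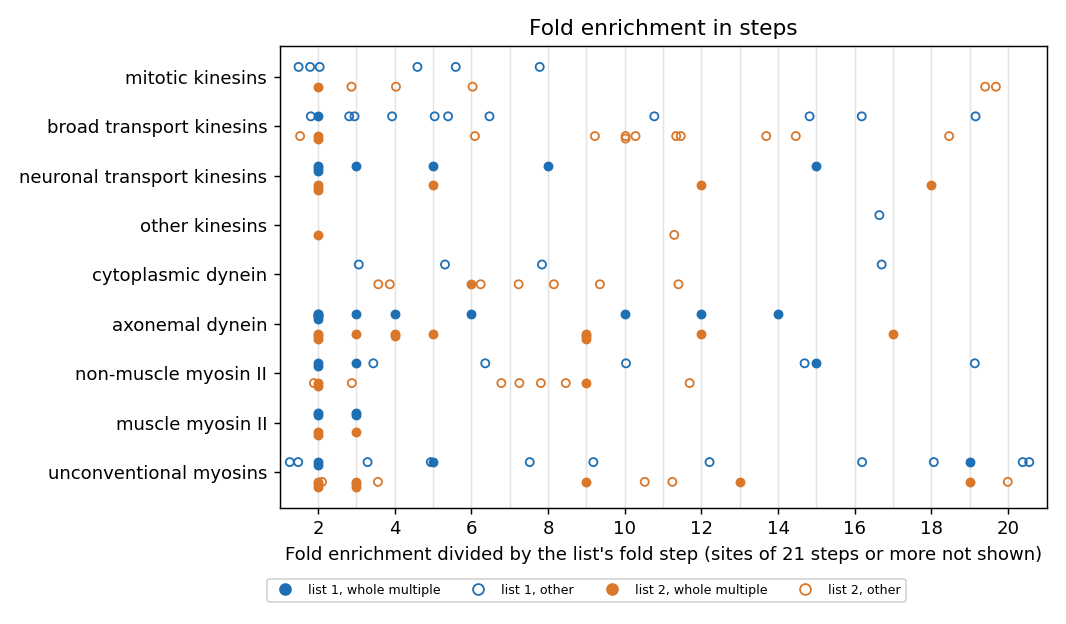
Fold enrichment divided by the step of its list, for sites below 21 steps, by role group, filled where the fold is a whole multiple. Sites of axonemal dynein, neuronal kinesins and muscle myosins lie on whole numbers in this range, and most sites of mitotic and broad transport kinesins and of cytoplasmic dynein lie between them.

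The axonemal dynein heavy chains had 13 sites in each list, 8 of them overlapping. Dnah17 had 3 overlapping sites on chromosome 11. At 118056847 to 118056964, with the same limits in both lists, its folds were 15.94 and 12.02. Its other pairs, from 118082301 (9.56 and 12.02) and up to 118087069 (4.78 and 6.68), also lay within 2-fold. Dnah2 had the highest fold called on a step among the axonemal dyneins, 51.01 and 50.75 at a site ending at chromosome 11, 69491666, and 6.38 and 12.02 at one ending at 69454192. The other 3 genes had 1 pair each, starting in list 1 at chromosome 5, 124828016 for Dnah10 (22.32 and 16.03), at chromosome 6, 73017682 for Dnah6 (19.13 and 22.7) and at chromosome 12, 118038664 for Dnah11 (3.19 and 4.01). All 8 pairs were within 2-fold, on a step in both lists and at an FDR of 100% in both. Dnah8 in list 1 (3.19 at each of 2 sites) and Dnah7b in list 2 (2.67) had sites in 1 list, the latter uncertain because Dnah7a and Dnah7c are close copies. Dnah1 was the exception in fold and score. Its single site of 33 bases in list 1, at chromosome 14, 31265879 to 31265911, had a fold of 1203.42 with the score at 3100, rank 59 of 4187 genes. Whether that fold lay on a step was not settled.

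Markers of ciliated cells were read beside these dyneins. Of 15 ciliated cell markers 4 had a site and 11 had none, including the master regulator gene Foxj1. The share of all RefSeq genes with a site was not computed, so this count cannot be called low or high. Hydin had 3.19 in list 1 and 2.67 in list 2 at places apart, Cfap44 had 19.13 and Drc1 2.84 in list 1, and the outer arm gene Dnaic1 had 2.67 in list 2. No marker overlapped between the lists, 4 of the 5 marker sites lay on a step, and all 5 had an FDR of 100%. The part of ciliated cells in the dynein sites was not tested.

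Neuronal kinesins gave like values. Kif1a, a carrier of synaptic vesicle precursors, had 23.91 and 24.04 at a site from chromosome 1, 93054816, and 4.78 and 6.68 at one from 93017940. Kif5c had 12.75 and 16.03 at chromosome 2, 49693694 to 49693742, and 3.19 and 2.67 at 49739097 to 49739200, and Kif5a had 3.19 and 2.67 at a site up to chromosome 10, 127242106, and 7.97 and 2.67 at 127242658 to 127242717. All 6 pairs of these neuronal conventional and synaptic kinesins were on a step in both lists at an FDR of 100%, and 5 were within 2-fold. Kif21b differed in fold and score, with folds of 709.3 and 575.41 in list 1, both with the score at 3100, and no site in list 2. Whether these 2 folds lay on a step was not settled.

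The muscle myosins had 4 sites in list 1 and 3 in list 2, every one on a step and at an FDR of 100%. Myh2, of adult fast fibres, had 3.19 and 4.01 at chromosome 11, 67188945 to 67189067. Myh3, the embryonic form, had 4.78 and 2.67 at 67099178 to 67099437. Both pairs had the same limits in the lists. The perinatal gene Myh8 (3.19) and the smooth muscle gene Myh11 (4.78) had a site in list 1 alone. The skeletal genes lie in a cluster of close relatives, so their values are uncertain where reads could come from a neighbour. Of 15 skeletal muscle markers 5 had a site (Ttn, Neb, Myod1, Ryr1 and Pax7) and 10 had none, among them Acta1, Ckm and Des. All 13 marker sites lay on a step, with folds from 2.67 to 28.05, and Neb and Ryr1 overlapped between the lists. The part of muscle cells in the myosin sites was not tested.

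The overlapping pairs thus fell into 20 on a step in both lists and 21 others, where 27.6% of all pairs were on a step in both. Of the 25 genes with an overlapping site, 13 had pairs of the first kind alone and 12 had another pair. On a step, 18 of 20 pairs were within 2-fold and none differed by more than 4-fold, and their scores ran from 8.77 to 400.22 in list 1 and from 7.2 to 415.3 in list 2. Of the others 9 of 21 were within 2-fold and 8 differed by more than 4-fold. Among these 8 was the Dync2h1 pair (388.92 and 8.01), at 243.99 steps in list 1 and on a step in list 2. To which kind this pair belongs was not settled, so the split by fold difference depends on how high folds are called. Over all 41 motor gene pairs 27 were within 2-fold (65.9%, against 51.8% of all pairs), and log2 of the list 2 fold over the list 1 fold had a median of 0.04 with quartiles of -0.50 and 0.48. Both limits were the same in 14 pairs (34.1%, against 31.9%). At least 1 limit was the same in 39 pairs, or 95.1%, against 74.3% of all pairs. Without the sites called on a step, 9 of 35 motor genes had an overlapping site (25.7%, 14.2 to 42.1), beside 21.7% of all genes, a drop of more than 1.5 times from the full lists.

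**Figure D5:**
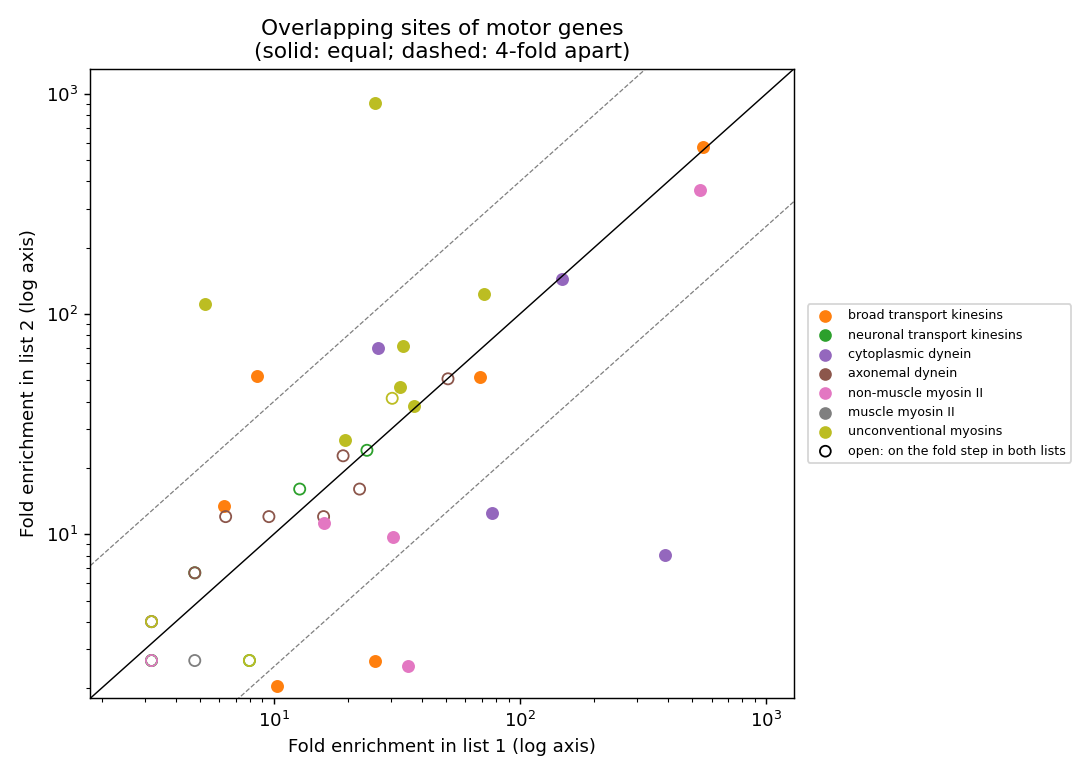
Fold enrichment in list 2 against list 1 (log axes) at the 41 overlapping pairs of sites in motor genes, coloured by role, with open points for pairs on a step in both lists. The 20 open points lie between the dashed lines that mark a 4-fold difference, 8 filled points lie outside them, and some open points coincide. The filled point of Dync2h1, outside the lines, has a step call that was not settled.

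Sites of motor genes were shorter than sites at large and lay less often at the far end of the gene. The median length was 107 bases in list 1 and 144 in list 2, beside 183 and 169, and 1 site of 205, in Dync1h1, was longer than 600 bases. In genes spanning over 50 kb the medians were 116 and 145, beside 164 and 156, so the list 2 difference was smaller there. Strand was known for 52 genes with 187 sites. Of these sites 24 (12.8%) lay in the last 10% of the genomic span and 5 (2.67%) in the first 10%, beside 25.6% and 10.5% of all sites with a position. Among genes spanning over 50 kb the last 10% of the span held 13.6% of motor gene sites and 28.8% of all. The span includes introns, and positions were not set against exons or UTRs. In the deposited annotation 11 of the 59 genes carried the term brush border (18.6%, against 0.438% of all genes) and 11 the term neuron projection (18.6%, against 2.66%). The genes were chosen by motor names, so such terms are frequent by that choice, as is microtubule (47.5%, against 2.35%). The terms describe the set and say nothing about its sites.

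Partners of the motors were read from lists of 73 genes. Of 18 myosin light chains and their regulators 10 had a site and 7 an overlapping one. That was 70.0% of the 10 (39.7 to 89.2), against 27.2% of all genes with a site, and was not tested. All 7 were regulators and none of them a light chain: Myl6, Myl6b, Myl9, Myl12a and Myl12b had no site. The kinase genes Rock1 (337.6 and 297.57) and Rock2 (309.53 and 60.5) had pairs with an FDR below 100% in both lists. Ppp1r12a, the targeting subunit of myosin phosphatase, had 192.6 and 2.21 at its strongest pair, and Cdc42bpa, a kinase of myosin regulation, had 1029.69 and 2.67. Cdc42bpb (22.74 and 4.22), Mylk (9.56 and 18.7) and Cit (3.19 and 5.34) made up the rest. A further Rock1 pair had 61.56 and 3.97, so the folds were close at 1 place of Rock1 and far apart at the other, as they were for Ppp1r12a and Cdc42bpa at the pairs named.

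Of 13 kinesin light chains and adaptors 8 had a site and 3 an overlapping one, or 37.5% of the 8, against 27.2% of all genes with a site. The 3 were the mitochondrial adaptor Trak1 (201.25 and 615.48) and the JNK scaffolds Mapk8ip3 (210.23 and 19.2) and Spag9 (51.47 and 142.65). Of 29 dynactin and dynein regulator genes 17 had a site and 4 an overlapping one, or 23.5% of the 17. The 4 were the adaptors Bicd2 (163.07 and 27.84), Hook1 (21.06 and 55.63) and Rab11fip3 (5.29 and 8.01), and the light chain gene Dynlt1b (32.94 and 4.82), which has close copies and is uncertain. Of 13 partners of unconventional myosins 6 had a site and none an overlapping one, and the interval of that share reached 39.0%. Rab27a, the GTPase that links Myo5a to melanosomes, and Rab11fip1 had sites in both lists that lay apart.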

How the data were processed

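The authors deposited 2 lists of methylated mRNA sites, made from input and IP libraries of epidermal keratinocytes. Coordinates are on GRCm38 according to the submitters' processing notes. Per the file headers and rows, sites are named after MACS, a peak caller. No source used here gives its version, the aligner or the filters. The deposited fold enrichment is taken here as IP over input, and it was never below 2. The IP and input reads behind it were not used, so a high fold cannot be split into IP signal and input signal. The deposited score is minus 10 log10 of the p-value, and the deposited FDR is a percent. To each deposited start 1 was added.

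No count, depth or value per library was used, so no test was run and values are given beside those of all 6625 genes or 14284 sites. Sites overlapped when they shared at least 1 base on a chromosome, without regard to strand, and pairs were taken once each by the largest overlap. Intervals are 95% Wilson intervals. The share of all RefSeq genes that had a site was not computed, so counts of listed genes with a site are descriptions only. The step of a list is the value between 1.2 and 1.8 that had the most folds under 60 within 0.01 of a whole multiple. Both routines were checked on simulated lists. The simulated steps were all at folds under 60, so step calls at higher folds were not checked. Gene spans, strands and promoter windows came from RefSeq tables on GRCm38.p6, and partner and marker genes that the lists hold under an older symbol were matched by gene ID. The members, role groups and lists were chosen with earlier results of these data known. Every member is named, with folds for all sites that overlapped and for the strongest others, and scores or FDRs for some sites alone or as ranges. Alternatives kept only sites whose p was at most 1e-05, an FDR below 100%, or the upper 50% by fold, or used a reciprocal overlap of 50%, a gap of 100 bases, merged sites, or left out Dnah or Myh genes. Python 3.11.15, pandas 2.3.3 and numpy 2.4.6 were used.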

Additional observations from a re-analysis of the deposited data

How the results depend on the processing

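Over 6 values and 9 settings, 35 of 50 recomputed values stayed within the interval of the reported share, or within 1.5 times the reported median, and 15 moved. With an FDR below 100%, 34.6% of motor genes were in both lists, 19.2% had an overlapping site, 29.0% of list 1 sites and 17.0% of list 2 sites overlapped (27.1% and 16.7% of all sites), and the median folds were 69.1 and 44.6. Without sites on a step, an alternative chosen after the data were seen, 25.7% of genes had an overlapping site, 27.6% and 22.5% of sites overlapped, and the median folds were 24.7 and 26.7. Beside these stood 31.1% and 22.5% of all sites. High folds whose step call is not settled stayed in this alternative. The median folds were 25.8 and 25.4 where p was at most 1e-05, and 32.8 and 37.5 among the upper 50% of sites by fold, which removes low folds by construction. For the other moved values the cause was not tested. A reciprocal overlap, a gap of 100 bases, merging, and leaving out the Dnah or the Myh genes moved none. No paired analysis was possible because the lists carry no values per library and are not tied to replicate numbers, and for the same reason no replicate could be left out. Depth is unknown, which limits every fold given.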
